A study of Mus musculus with 24 samples.

Results

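Integrins and the proteins that join them to actin at focal adhesions were described in MLO-Y4 cells, a mouse osteocytic line. The group has 33 genes, chosen by symbol: 11 alpha subunits, 5 beta subunits, 3 activators of integrins, 3 members of the complex of ILK, PINCH and parvin, 5 kinases and scaffolds, 4 actin linkers, and the membrane partners Cav1 and Cd44. A row with a member's symbol alone was found for 32 of the 33, among 19938 genes with such a row. Ptk2, the gene of focal adhesion kinase, had none and is not analysed here. The alpha subunits Itga4, Itga8 and Itga9 fell below the filter on dim rows, so 29 members were among the 14489 genes tested.

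The series holds 24 arrays of total RNA, 3 in each of 8 groups. All cells first received an antibody at a 1:50 dilution for 30 min at 37 °C in 5% CO2: either rabbit IgG of no relevant target, called the IgG arm here, or at 28 µg/ml Cx43(E2), a blocker of connexin 43 hemichannels, called the E2 arm. Cells of each arm then stayed in an incubator (C) or at the positions called 1g, 2g and ug on a platform inside the high magneto-gravitational environment (HMGE). The groups are thus IgG C, IgG 1g, IgG 2g, IgG ug, E2 C, E2 1g, E2 2g and E2 ug. How long the cells stayed on the platform is not given in the sources used here. MLO-Y4 is 1 immortalised line, and no label says that the 3 replicates of a group were separate cultures, so every p-value measures only the spread between these arrays.

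Integrins are pairs of an alpha and a beta subunit that bind matrix proteins outside the cell. Talins and kindlins bind the tail of the beta subunit and switch the receptor on. ILK with PINCH and parvin, together with paxillin, Cas, zyxin and tensins, then ties it to actin, while focal adhesion kinase, its relative Pyk2 and Src pass the signal on. In osteocytes integrins anchor the cell processes to the walls of their canals. The receptor of Itga5 and Itgb1 has been described as a partner of connexin 43 that tethers the opening of hemichannels to load, which is the question both arms bring to these genes.

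The stretch of 250 bases before the start site is shown for 5 members, in RefSeq's sequence of GRCm38.p6. Cav1, Itgb5 and Ilk are shown because they moved together between sets of arrays, and Itgb7 because it moved the opposite way. Itga1 is shown because it was the member that passed the test between the arms in the incubator when all arrays were used. They lie at chr6:17306085-17306334 (plus strand), chr16:33829415-33829664 (plus strand), chr7:105736340-105736589 (plus strand), chr15:102231936-102232185 (minus strand) and chr13:115101965-115102214 (minus strand), each read 5′ to 3′ on the strand of the gene up to the base before its first listed start. Capitals mark the motifs found.
Cav1: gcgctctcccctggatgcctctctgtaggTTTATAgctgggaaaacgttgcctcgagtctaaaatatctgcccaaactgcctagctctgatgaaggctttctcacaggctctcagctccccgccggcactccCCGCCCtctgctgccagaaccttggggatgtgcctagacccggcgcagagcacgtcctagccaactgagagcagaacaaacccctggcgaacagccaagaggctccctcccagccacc
Itgb5: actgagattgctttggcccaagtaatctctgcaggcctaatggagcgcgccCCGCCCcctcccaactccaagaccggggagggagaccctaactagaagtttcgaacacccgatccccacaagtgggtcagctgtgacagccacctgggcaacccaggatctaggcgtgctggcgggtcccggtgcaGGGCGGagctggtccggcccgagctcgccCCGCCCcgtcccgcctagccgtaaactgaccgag
Ilk: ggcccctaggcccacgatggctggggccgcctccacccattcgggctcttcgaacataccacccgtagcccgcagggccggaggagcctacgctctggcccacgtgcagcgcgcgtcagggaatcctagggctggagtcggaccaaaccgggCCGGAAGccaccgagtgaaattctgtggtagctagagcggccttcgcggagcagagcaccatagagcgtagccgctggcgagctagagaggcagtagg
Itgb7: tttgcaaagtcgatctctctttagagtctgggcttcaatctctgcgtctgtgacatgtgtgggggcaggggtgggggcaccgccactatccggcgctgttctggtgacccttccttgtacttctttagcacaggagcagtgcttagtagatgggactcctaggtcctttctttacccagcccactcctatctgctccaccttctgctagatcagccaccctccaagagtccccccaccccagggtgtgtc
Itga1: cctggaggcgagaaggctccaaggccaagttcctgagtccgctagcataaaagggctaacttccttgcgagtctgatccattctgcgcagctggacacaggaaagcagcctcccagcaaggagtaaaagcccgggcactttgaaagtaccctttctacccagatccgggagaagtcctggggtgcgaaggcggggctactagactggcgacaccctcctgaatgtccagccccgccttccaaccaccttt
Cav1 holds a GC box and, on the opposite strand near the upstream end of the window, the letters of a TATA box. Itgb5 holds 3 GC boxes, and Ilk holds 1 ETS motif. None of the 7 motifs searched stood in the windows of Itgb7 and Itga1.

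Of the 32 members with a row, 25 had an entry in the promoter table, and its 27025 promoters served as the comparison. Both strands were searched, and only the TATA box can lie within another motif, the CArG box (CCWWWWWWGG, W being A or T). The GC box (GGGCGG) stood in 13 of the 25 members and in 32.9% of all promoters, and the TATA box (TATAAA) in 1 member and 13% of all. The ETS motif (CCGGAAG) stood in 2 members and 7.05% of all, the AP-1 motif (TGANTCA) in 1 and 6.87%, and the TEAD motif (GGAATG) in 1 and 12.6%. The cyclic AMP element (TGACGTCA) stood in none and 1.62%, and the CArG box in 1 and 1.4%. Median GC content was 64.4% in the members and 52% in all promoters. These matches describe letters in a window, and say nothing of whether a factor binds there.

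Titles number the replicates, and a set here means the 4 arrays, 1 per environment, with the same number in the same arm, such as IgG 1. Some sets stand apart from the rest of their arm. The first principal component of all genes held 44.6% of the variance, and on it sets IgG 3, E2 1 and E2 2 lay above 0 while IgG 1, IgG 2 and E2 3 lay below 0. Set 3 of each arm thus lay with the first and second sets of the other arm, against the labels of the arms. Whether the labels of set 3 are exchanged was not tested, and every E2 minus IgG value that includes set 3 rests on them as given. Array medians ran from 6.48 to 6.65 on the log2 scale. Gja1, the gene of connexin 43, split the same way, with set means of 11.56, 11.50 and 11.94 in the IgG arm and 11.82, 11.86 and 11.42 in the E2 arm. The antibody binds protein, so Gja1 RNA checks no label. Of 8 osteocyte markers, 5 passed the filter, and Dmp1, Mepe and Phex did not. Calls and named differences between the arms at 1 environment or over set means are therefore given with set 3 of both arms and without it. Differences between the arms in the change with position were not refitted without set 3 of both arms.

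Among the members too, sets differed more than environments did. In the E2 arm the set means of a member spread more widely than its environment means for 26 of 32 members, with median ranges of 0.255 and 0.0964 on the log2 scale. In the IgG arm this held for 20 of 32, with median ranges of 0.119 and 0.103. Such counts were not made over all genes, so they do not set the members apart from other genes. In the comparisons of set 3 below, 39.9% of all genes in the E2 arm and 30.3% in the IgG arm passed the test. In this and every later sentence on arrays, the values of a set are log2 intensities given in the order C, 1g, 2g and ug. Differences are on the same log2 scale with their standard error after ±, and a gene is said to be called where its limma adjusted p was under 0.05.

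**Figure D1:**
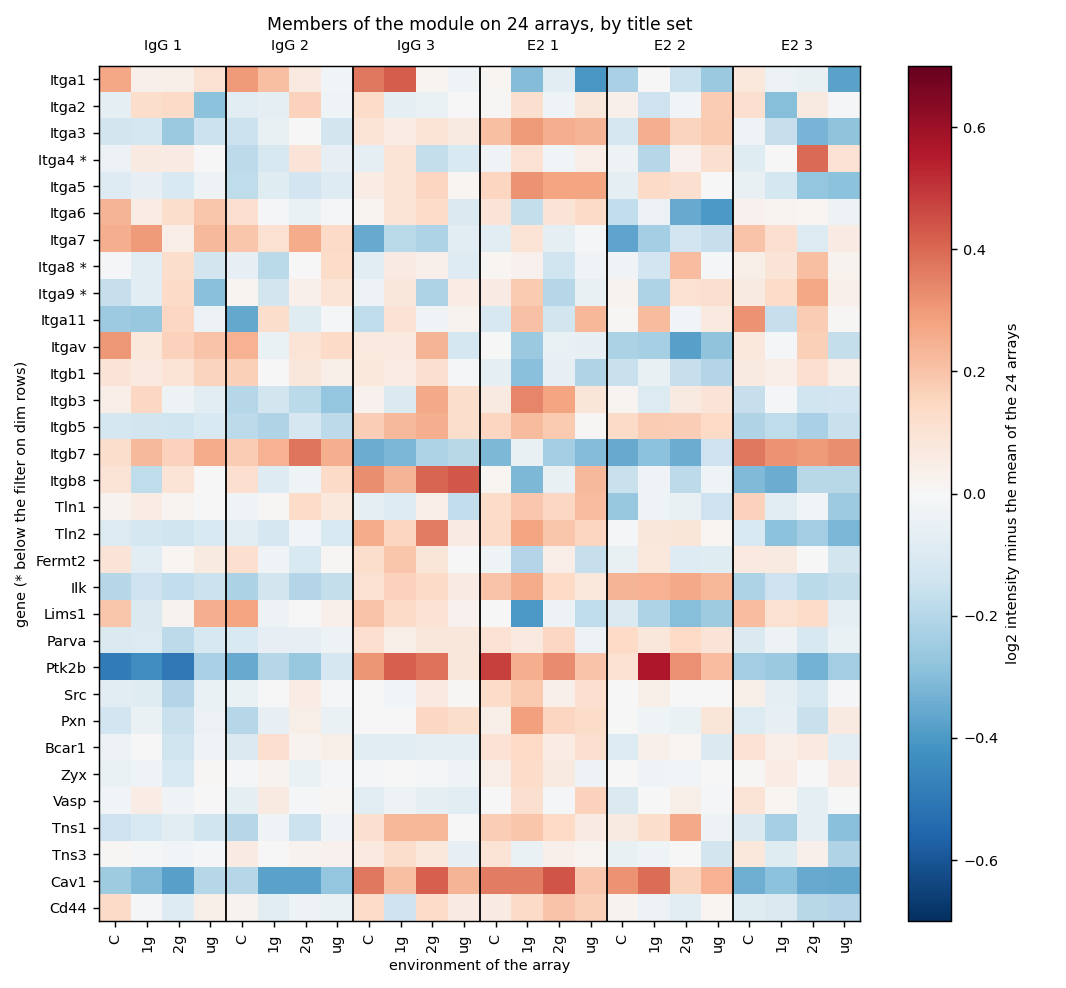
Log2 intensity of the 32 members with a row (rows; * marks a member below the filter) on the 24 arrays (columns, by set and environment), as the difference from the member's mean over all arrays. Cav1, Ptk2b, Itgb5 and Ilk are higher in sets IgG 3, E2 1 and E2 2, and Itgb7 is higher in IgG 1, IgG 2 and E2 3.

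Set 3 of the IgG arm was compared with the mean of its sets 1 and 2, with the environment in the fit. Of the 29 members tested, 12 were higher in set 3 and 2 were lower (limma adjusted p under 0.05), 48.3% of them, against 30.3% of all genes (12.9% higher and 17.4% lower). The same comparison in the E2 arm found 5 members higher and 14 lower, 65.5% of them, against 39.9% of all genes (21.2% higher and 18.7% lower). The arrays of set 3 did not overlap the rest of the arm for 10 members that were higher and 2 lower in the IgG arm (18.9% of all genes in either direction), and for 2 higher and 7 lower in the E2 arm (20.4%). All 14 members called in the IgG arm were called in the E2 arm with the opposite sign. Over all genes 3268 were called in both arms, 3245 of them with opposite signs (22.4% of genes tested) and 23 with the same sign. The median difference over the members was 0.07 in the IgG arm and -0.07 in the E2 arm, beside 0.00 and 0.03 over all genes. A set is 1 set, so the test says that sets differ beyond the spread left between arrays, and not that a condition differs. Which sets were compared was decided with the earlier results known.

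The membrane partner Cav1 (probe set 10536499, 9.56 to 10.38 over the 24 arrays), the coat protein of caveolae, was among the members that moved most. Cav1 read 9.69, 9.63, 9.56 and 9.74 in set IgG 1, 9.74, 9.57, 9.57 and 9.67 in set IgG 2, and 10.31, 10.15, 10.36 and 10.18 in set IgG 3. Cav1 in the E2 arm read 10.30, 10.30, 10.38 and 10.13 in set E2 1, 10.25, 10.33, 10.10 and 10.18 in set E2 2, and 9.60, 9.65, 9.59 and 9.58 in set E2 3. No array of set IgG 3 overlapped those of IgG 1 and IgG 2, and none of E2 3 overlapped those of E2 1 and E2 2, whatever the environment. The difference for Cav1 was 0.60 ± 0.05 in the IgG arm (limma adjusted p = 1.04e-08) and -0.64 ± 0.05 in the E2 arm (limma adjusted p = 2.46e-09). Its window was the only 1 of the 5 shown with a TATA match, and a link to these differences was not tested. The hyaluronan receptor Cd44 (probe set 10485405, 8.87 to 9.28 over the 24 arrays) moved in the E2 arm alone by this threshold. Cd44 read 9.21, 9.07, 8.99 and 9.12 in set IgG 1, 9.10, 9.00, 9.04 and 9.03 in set IgG 2, and 9.21, 8.93, 9.21 and 9.13 in set IgG 3. Cd44 in the E2 arm read 9.14, 9.21, 9.28 and 9.24 in set E2 1, 9.11, 9.03, 9.00 and 9.09 in set E2 2, and 8.99, 8.98, 8.88 and 8.87 in set E2 3. Set E2 3 lay below the other E2 arrays, and the IgG arrays overlapped. The difference for Cd44 was 0.05 ± 0.05 in the IgG arm (limma adjusted p = 0.511) and -0.21 ± 0.05 in the E2 arm (limma adjusted p = 0.00209). The difference between the arms in this contrast was itself tested and is given for each member in the closing section.

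**Figure D2:**
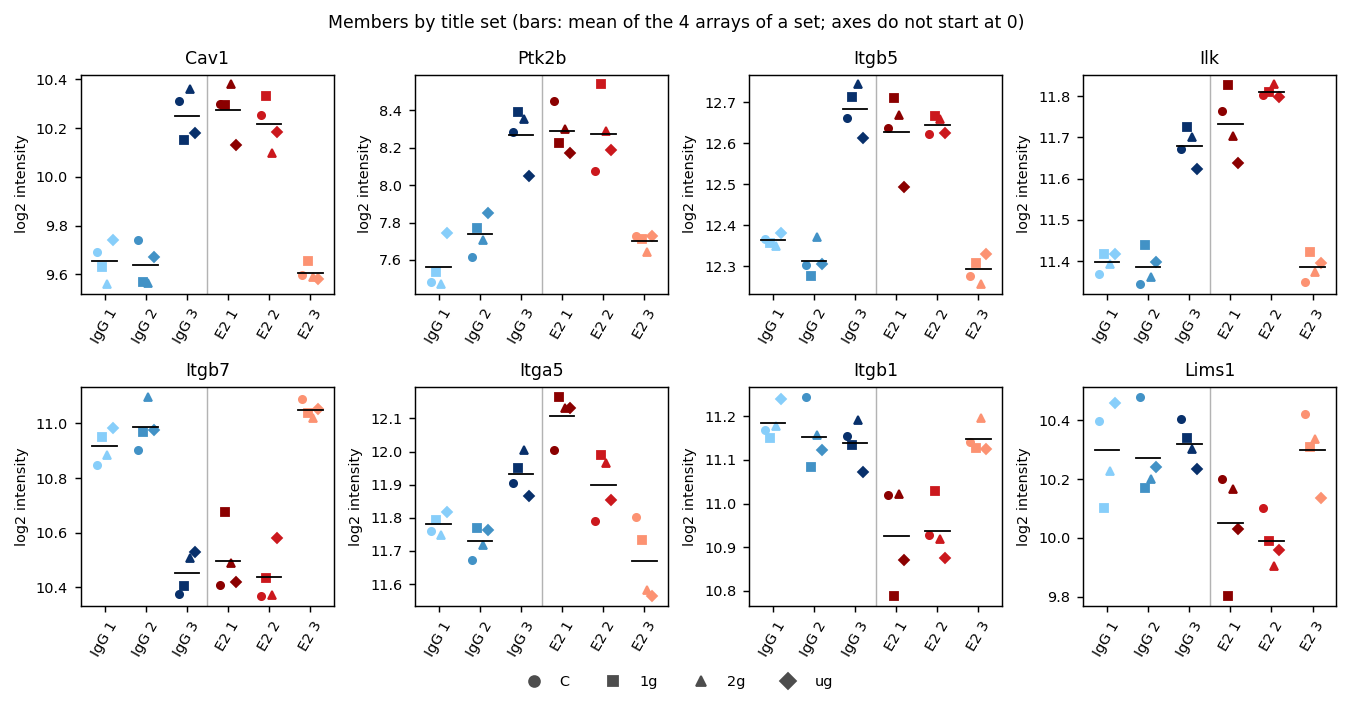
Log2 intensity of 8 members in the 6 sets, with 1 point per array, the environment as its symbol, and the mean of the 4 arrays as a bar. For Cav1, Ptk2b, Itgb5 and Ilk all arrays of set IgG 3 lie above those of IgG 1 and IgG 2 and all arrays of E2 3 lie below those of E2 1 and E2 2, and for Itgb7 both are turned.

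Among the beta subunits, 3 of 5 were higher in set IgG 3 and 1 was lower, and in set E2 3 there were 2 higher and 3 lower. Of all genes 12.9% were higher and 17.4% lower in IgG 3, and 21.2% were higher and 18.7% lower in E2 3. Itgb5 (probe set 10435305, 12.26 to 12.74 over the 24 arrays), the partner of the alpha v subunit in a vitronectin receptor, split between sets without overlap. Itgb5 read 12.37, 12.36, 12.35 and 12.38 in set IgG 1, 12.30, 12.28, 12.37 and 12.31 in set IgG 2, and 12.66, 12.71, 12.74 and 12.61 in set IgG 3. Itgb5 in the E2 arm read 12.64, 12.71, 12.67 and 12.49 in set E2 1, 12.62, 12.67, 12.66 and 12.63 in set E2 2, and 12.28, 12.31, 12.26 and 12.33 in set E2 3. Neither set 3 overlapped the rest of its arm. The difference for Itgb5 was 0.34 ± 0.03 in the IgG arm (limma adjusted p = 2.42e-08) and -0.34 ± 0.03 in the E2 arm (limma adjusted p = 1.54e-08). Itgb7 (probe set 10432957, 10.37 to 11.10 over the 24 arrays), best known as a homing receptor subunit of lymphocytes, did the opposite. Itgb7 read 10.85, 10.95, 10.88 and 10.98 in set IgG 1, 10.90, 10.97, 11.10 and 10.98 in set IgG 2, and 10.37, 10.40, 10.51 and 10.53 in set IgG 3. Itgb7 in the E2 arm read 10.41, 10.67, 10.49 and 10.42 in set E2 1, 10.37, 10.44, 10.37 and 10.58 in set E2 2, and 11.09, 11.04, 11.02 and 11.05 in set E2 3. It was dimmer in set IgG 3 and brighter in E2 3 with no overlap in either arm. The difference for Itgb7 was -0.50 ± 0.05 in the IgG arm (limma adjusted p = 5.26e-08) and 0.58 ± 0.05 in the E2 arm (limma adjusted p = 3.18e-09). The promoter window of Itgb7 held no GC box and that of Itgb5 held 3, and a link to these differences was not tested.

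Itgb3 (probe set 10381809, 10.08 to 10.69 over the 24 arrays), another partner of the alpha v subunit and a receptor for osteopontin, moved less. Itgb3 read 10.40, 10.50, 10.31 and 10.27 in set IgG 1, 10.15, 10.22, 10.16 and 10.08 in set IgG 2, and 10.38, 10.25, 10.61 and 10.48 in set IgG 3. Itgb3 in the E2 arm read 10.41, 10.69, 10.63 and 10.43 in set E2 1, 10.37, 10.25, 10.41 and 10.44 in set E2 2, and 10.19, 10.34, 10.21 and 10.22 in set E2 3. Set IgG 3 overlapped IgG 1 and lay above IgG 2, and E2 3 overlapped E2 2 and lay below E2 1. The difference for Itgb3 was 0.17 ± 0.06 in the IgG arm (limma adjusted p = 0.0475) and -0.21 ± 0.06 in the E2 arm (limma adjusted p = 0.00935). The IgG call of Itgb3 was lost without the C, 2g or ug arrays (0.10 to 0.19, limma adjusted p 0.103 to 0.353), without the filter (limma adjusted p = 0.0588) and without the variance trend (limma adjusted p = 0.0748), and the E2 call without the 2g arrays (-0.18, limma adjusted p = 0.0661). Itgb8 (probe set 10403229, 6.81 to 7.59 over the 24 arrays), which with the alpha v subunit binds latent TGF-beta, had the lowest level of the beta subunits. Itgb8 read 7.26, 6.98, 7.26 and 7.17 in set IgG 1, 7.28, 7.07, 7.13 and 7.30 in set IgG 2, and 7.49, 7.40, 7.57 and 7.59 in set IgG 3. Itgb8 in the E2 arm read 7.18, 6.85, 7.11 and 7.39 in set E2 1, 7.01, 7.14, 6.98 and 7.13 in set E2 2, and 6.85, 6.81, 6.96 and 6.96 in set E2 3. Set IgG 3 lay above the rest of its arm, while E2 3 overlapped E2 1. The difference for Itgb8 was 0.33 ± 0.07 in the IgG arm (limma adjusted p = 0.000661) and -0.20 ± 0.07 in the E2 arm (limma adjusted p = 0.0234). The E2 call of Itgb8 was lost without the C or the ug arrays (-0.18 and -0.16, limma adjusted p 0.108 and 0.118) and in a fit of the E2 arrays alone (limma adjusted p = 0.0684).

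Itgb1 (probe set 10576661, 10.79 to 11.25 over the 24 arrays), the partner of most alpha subunits and of Itga5 in the fibronectin receptor, moved in the E2 arm. Itgb1 read 11.17, 11.15, 11.18 and 11.24 in set IgG 1, 11.25, 11.08, 11.16 and 11.12 in set IgG 2, and 11.15, 11.13, 11.19 and 11.07 in set IgG 3. Itgb1 in the E2 arm read 11.02, 10.79, 11.02 and 10.87 in set E2 1, 10.93, 11.03, 10.92 and 10.87 in set E2 2, and 11.14, 11.13, 11.20 and 11.12 in set E2 3. The arrays of E2 3 lay above all of E2 1 and E2 2 and within the range of the IgG arrays, whose 3 sets overlapped. The difference for Itgb1 was -0.03 ± 0.04 in the IgG arm (limma adjusted p = 0.651) and 0.22 ± 0.04 in the E2 arm (limma adjusted p = 0.000237). Sets E2 1 and E2 2 were the low ones for Itgb1.

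Of the alpha subunits tested, 2 of 8 were higher and 1 was lower in set IgG 3, beside 12.9% and 17.4% of all genes. In E2 3, 2 were higher and 2 lower, beside 21.2% and 18.7%. Itga5 (probe set 10433114, 11.56 to 12.17 over the 24 arrays), the fibronectin receptor subunit tied to connexin 43, was higher in IgG 3 and lower in E2 3. Itga5 read 11.76, 11.79, 11.75 and 11.82 in set IgG 1, 11.67, 11.77, 11.72 and 11.76 in set IgG 2, and 11.90, 11.95, 12.00 and 11.87 in set IgG 3. Itga5 in the E2 arm read 12.01, 12.17, 12.13 and 12.13 in set E2 1, 11.79, 11.99, 11.96 and 11.85 in set E2 2, and 11.80, 11.73, 11.58 and 11.56 in set E2 3. Set IgG 3 did not overlap the rest of its arm, and set E2 1 had the highest mean of the 6 sets. The difference for Itga5 was 0.18 ± 0.04 in the IgG arm (limma adjusted p = 0.00302) and -0.33 ± 0.04 in the E2 arm (limma adjusted p = 2.17e-06). In the E2 arm set 2 was also below set 1, by -0.21 ± 0.05 (limma adjusted p = 0.0269). Itga3 (probe set 10390117, 9.38 to 10.01 over the 24 arrays), a laminin receptor subunit, followed Itga5. Itga3 read 9.58, 9.59, 9.45 and 9.56 in set IgG 1, 9.56, 9.66, 9.71 and 9.58 in set IgG 2, and 9.80, 9.76, 9.80 and 9.77 in set IgG 3. Itga3 in the E2 arm read 9.92, 10.01, 9.96 and 9.95 in set E2 1, 9.59, 9.96, 9.86 and 9.89 in set E2 2, and 9.69, 9.55, 9.38 and 9.43 in set E2 3. Set IgG 3 lay above the other IgG arrays, and E2 3 lay below E2 1 but overlapped E2 2, where the C array was low. The difference for Itga3 was 0.20 ± 0.06 in the IgG arm (limma adjusted p = 0.0152) and -0.38 ± 0.06 in the E2 arm (limma adjusted p = 3.32e-05). The IgG call of Itga3 was lost without the 2g or the ug arrays (0.19 and 0.20, limma adjusted p 0.0577 and 0.0575).

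Itga7 (probe set 10367440, 8.15 to 8.82 over the 24 arrays), the laminin receptor subunit of muscle, moved as Itgb7 did. Itga7 read 8.77, 8.82, 8.56 and 8.74 in set IgG 1, 8.71, 8.62, 8.77 and 8.65 in set IgG 2, and 8.16, 8.33, 8.30 and 8.44 in set IgG 3. Itga7 in the E2 arm read 8.45, 8.61, 8.45 and 8.51 in set E2 1, 8.15, 8.28, 8.38 and 8.35 in set E2 2, and 8.71, 8.63, 8.42 and 8.57 in set E2 3. Set IgG 3 was below the other IgG arrays, and in the E2 arm set 2 was the low one while set 1 overlapped set 3. The difference for Itga7 was -0.40 ± 0.07 in the IgG arm (limma adjusted p = 9.78e-05) and 0.19 ± 0.07 in the E2 arm (limma adjusted p = 0.0298). The E2 call was lost without the C, 1g or ug arrays (0.11 to 0.20, limma adjusted p 0.0605 to 0.266). Itgav (probe set 10473281, 10.20 to 10.88 over the 24 arrays), the vitronectin receptor subunit, was called in the E2 arm. Itgav read 10.88, 10.65, 10.74 and 10.77 in set IgG 1, 10.82, 10.53, 10.67 and 10.71 in set IgG 2, and 10.65, 10.64, 10.82 and 10.45 in set IgG 3. Itgav in the E2 arm read 10.58, 10.31, 10.53 and 10.52 in set E2 1, 10.36, 10.35, 10.20 and 10.30 in set E2 2, and 10.65, 10.57, 10.74 and 10.41 in set E2 3. The IgG sets overlapped, and E2 3 lay above E2 2 but overlapped E2 1. The difference for Itgav was -0.08 ± 0.06 in the IgG arm (limma adjusted p = 0.356) and 0.20 ± 0.06 in the E2 arm (limma adjusted p = 0.0115). Without the 2g arrays the E2 difference was 0.14 (limma adjusted p = 0.103).

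The other alpha subunits passed in neither set comparison. Itga1 and Itga2, collagen receptor subunits, ran from 6.91 to 7.74 and from 5.73 to 6.21. Itga6, a laminin receptor subunit, ran from 7.68 to 8.32, and Itga11, a collagen receptor subunit of mesenchymal cells, from 5.89 to 6.56. Itga4, Itga8 and Itga9 ran from 5.34 to 5.94, 4.96 to 5.37 and 5.51 to 6.07, at or under the filter levels of 5.90 to 6.08 except on 2 arrays for Itga9.

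Of the activators, Tln2 (probe set 10594679, 8.84 to 9.52 over the 24 arrays), the second talin, moved with Cav1. Tln2 read 9.07, 9.04, 9.02 and 9.06 in set IgG 1, 9.08, 9.04, 9.15 and 9.06 in set IgG 2, and 9.42, 9.31, 9.52 and 9.22 in set IgG 3. Tln2 in the E2 arm read 9.30, 9.44, 9.36 and 9.31 in set E2 1, 9.15, 9.24, 9.25 and 9.18 in set E2 2, and 9.06, 8.88, 8.92 and 8.84 in set E2 3. Set 3 of each arm stood apart from its other sets. The difference for Tln2 was 0.30 ± 0.05 in the IgG arm (limma adjusted p = 7.93e-05) and -0.35 ± 0.05 in the E2 arm (limma adjusted p = 8.44e-06). Tln1 (probe set 10512514, 11.00 to 11.48 over the 24 arrays), the talin of most cells, did not pass in either of these contrasts. Tln1 read 11.29, 11.32, 11.29 and 11.27 in set IgG 1, 11.24, 11.27, 11.40 and 11.34 in set IgG 2, and 11.20, 11.18, 11.31 and 11.09 in set IgG 3. Tln1 in the E2 arm read 11.39, 11.46, 11.41 and 11.48 in set E2 1, 11.00, 11.23, 11.21 and 11.12 in set E2 2, and 11.43, 11.18, 11.24 and 11.01 in set E2 3. Set E2 1 was the highest and E2 2 the lowest, with no overlap between them. The difference for Tln1 was -0.11 ± 0.06 in the IgG arm (limma adjusted p = 0.169) and -0.07 ± 0.06 in the E2 arm (limma adjusted p = 0.321). Tln1 in set E2 2 was below E2 1 by a difference of -0.29 ± 0.06 (limma adjusted p = 0.0202). Fermt2, a kindlin, ran from 10.50 to 10.90 and passed in no comparison.

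That comparison, E2 set 2 minus set 1, called 2 of 29 members, both lower, against 2.6% of all genes (0.932% higher and 1.67% lower). Both calls were lost without the 1g, 2g or ug arrays (limma adjusted p 0.104 to 0.129 for Itga5 and 0.0590 to 0.129 for Tln1), without the variance trend (0.0812 and 0.0543) and in a fit of the compared arrays alone (0.103 and 0.0876). Without the 1g arrays Itga6 was called too, at -0.41 (limma adjusted p = 0.0443). The same comparison in the IgG arm called 0 of 29 members by limma, and 0.0621% of all genes.

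In the complex of ILK, PINCH and parvin, Ilk (probe set 10556005, 11.34 to 11.83 over the 24 arrays), the pseudokinase at its centre, split as cleanly as Itgb5. Ilk read 11.37, 11.42, 11.39 and 11.42 in set IgG 1, 11.34, 11.44, 11.36 and 11.40 in set IgG 2, and 11.67, 11.73, 11.70 and 11.62 in set IgG 3. Ilk in the E2 arm read 11.76, 11.83, 11.70 and 11.64 in set E2 1, 11.80, 11.81, 11.83 and 11.80 in set E2 2, and 11.35, 11.42, 11.37 and 11.40 in set E2 3. No array crossed between the high sets IgG 3, E2 1 and E2 2 and the low sets. The difference for Ilk was 0.29 ± 0.03 in the IgG arm (limma adjusted p = 1.82e-07) and -0.39 ± 0.03 in the E2 arm (limma adjusted p = 1.73e-09). Parva (probe set 10556426, 11.32 to 11.65 over the 24 arrays), the parvin that binds actin, moved the same way by less. Parva read 11.40, 11.41, 11.32 and 11.39 in set IgG 1, 11.40, 11.45, 11.45 and 11.47 in set IgG 2, and 11.62, 11.55, 11.58 and 11.58 in set IgG 3. Parva in the E2 arm read 11.61, 11.58, 11.65 and 11.46 in set E2 1, 11.64, 11.58, 11.65 and 11.60 in set E2 2, and 11.40, 11.47, 11.39 and 11.46 in set E2 3. Set IgG 3 stood above its arm, and E2 3 overlapped E2 1, where the ug array was low. The difference for Parva was 0.17 ± 0.03 in the IgG arm (limma adjusted p = 0.000324) and -0.16 ± 0.03 in the E2 arm (limma adjusted p = 0.000348). Lims1 (probe set 10363265, 9.80 to 10.48 over the 24 arrays), which encodes PINCH, did not go with them. Lims1 read 10.40, 10.10, 10.23 and 10.46 in set IgG 1, 10.48, 10.17, 10.20 and 10.24 in set IgG 2, and 10.40, 10.34, 10.30 and 10.23 in set IgG 3. Lims1 in the E2 arm read 10.20, 9.80, 10.17 and 10.03 in set E2 1, 10.10, 9.99, 9.91 and 9.96 in set E2 2, and 10.42, 10.31, 10.34 and 10.13 in set E2 3. The IgG sets overlapped, and E2 1 and E2 2 had the low means, as for Itgb1, with E2 3 above E2 2 and overlapping E2 1. The difference for Lims1 was 0.04 ± 0.06 in the IgG arm (limma adjusted p = 0.721) and 0.28 ± 0.06 in the E2 arm (limma adjusted p = 0.000677).

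Among kinases and scaffolds, Ptk2b (probe set 10420957, 7.47 to 8.54 over the 24 arrays), which encodes the calcium-responsive kinase Pyk2, had the widest range of the members. Ptk2b read 7.48, 7.54, 7.47 and 7.75 in set IgG 1, 7.62, 7.77, 7.71 and 7.85 in set IgG 2, and 8.28, 8.39, 8.35 and 8.05 in set IgG 3. Ptk2b in the E2 arm read 8.45, 8.23, 8.30 and 8.17 in set E2 1, 8.08, 8.54, 8.29 and 8.19 in set E2 2, and 7.73, 7.71, 7.64 and 7.73 in set E2 3. Neither set 3 overlapped the rest of its arm. The difference for Ptk2b was 0.62 ± 0.08 in the IgG arm (limma adjusted p = 5.79e-06) and -0.58 ± 0.08 in the E2 arm (limma adjusted p = 8.57e-06). Pxn (probe set 10524703, 10.42 to 10.90 over the 24 arrays), the scaffold paxillin, moved the same way by less. Pxn read 10.48, 10.57, 10.46 and 10.57 in set IgG 1, 10.42, 10.56, 10.65 and 10.57 in set IgG 2, and 10.61, 10.62, 10.76 and 10.74 in set IgG 3. Pxn in the E2 arm read 10.66, 10.90, 10.77 and 10.75 in set E2 1, 10.61, 10.58, 10.57 and 10.70 in set E2 2, and 10.52, 10.55, 10.46 and 10.68 in set E2 3. Set IgG 3 lay above IgG 1 but overlapped IgG 2, and the E2 sets overlapped. The difference for Pxn was 0.15 ± 0.04 in the IgG arm (limma adjusted p = 0.0140) and -0.14 ± 0.04 in the E2 arm (limma adjusted p = 0.0148). The IgG call of Pxn was lost without the C or the 2g arrays (0.14 and 0.13, limma adjusted p 0.0702 and 0.0689), and the E2 call without the 1g or the 2g arrays (-0.12 each, limma adjusted p 0.0564 and 0.0875).

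Src (probe set 10477970, 9.89 to 10.28 over the 24 arrays), the kinase that phosphorylates paxillin and Cas, passed in the E2 arm by a narrow margin. Src read 10.02, 10.02, 9.89 and 10.05 in set IgG 1, 10.06, 10.10, 10.15 and 10.09 in set IgG 2, and 10.10, 10.08, 10.17 and 10.11 in set IgG 3. Src in the E2 arm read 10.23, 10.28, 10.14 and 10.22 in set E2 1, 10.10, 10.14, 10.10 and 10.10 in set E2 2, and 10.14, 10.03, 9.99 and 10.09 in set E2 3. Set IgG 1 was the low one of its arm, and the E2 sets overlapped. The difference for Src was 0.07 ± 0.04 in the IgG arm (limma adjusted p = 0.236) and -0.10 ± 0.04 in the E2 arm (limma adjusted p = 0.0477). Leaving out the arrays of any 1 environment ended the E2 call (-0.13 to -0.07, limma adjusted p 0.0605 to 0.247), as did taking off the filter, the variance trend or the IgG arrays (0.0651, 0.0589 and 0.0922). Bcar1, the scaffold Cas, ran from 9.61 to 9.89 and passed in neither arm.

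Of the actin linkers, Tns1 (probe set 10355534, 8.28 to 8.84 over the 24 arrays), a tensin of fibrillar adhesions, was called. Tns1 read 8.43, 8.47, 8.50 and 8.43 in set IgG 1, 8.37, 8.54, 8.42 and 8.55 in set IgG 2, and 8.68, 8.80, 8.81 and 8.57 in set IgG 3. Tns1 in the E2 arm read 8.75, 8.77, 8.71 and 8.63 in set E2 1, 8.63, 8.70, 8.84 and 8.54 in set E2 2, and 8.47, 8.34, 8.51 and 8.28 in set E2 3. Set 3 of each arm stood apart from its other sets. The difference for Tns1 was 0.25 ± 0.05 in the IgG arm (limma adjusted p = 0.000883) and -0.30 ± 0.05 in the E2 arm (limma adjusted p = 0.000117). Tns1 is the member with several rows, and its 6 rows did not move alike. Set 3 minus sets 1 and 2 lay between 0.11 and 0.44 for all 6 in the IgG arm. Of the same rows in the E2 arm, 5 lay between -0.77 and -0.06, and row 10355528 lay at 0.21. Zyx, Vasp and Tns3, which encode zyxin, an actin elongation factor and another tensin, ran from 11.62 to 11.85, 9.52 to 9.78 and 10.58 to 10.91, and none passed in either arm.

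**Figure D3:**
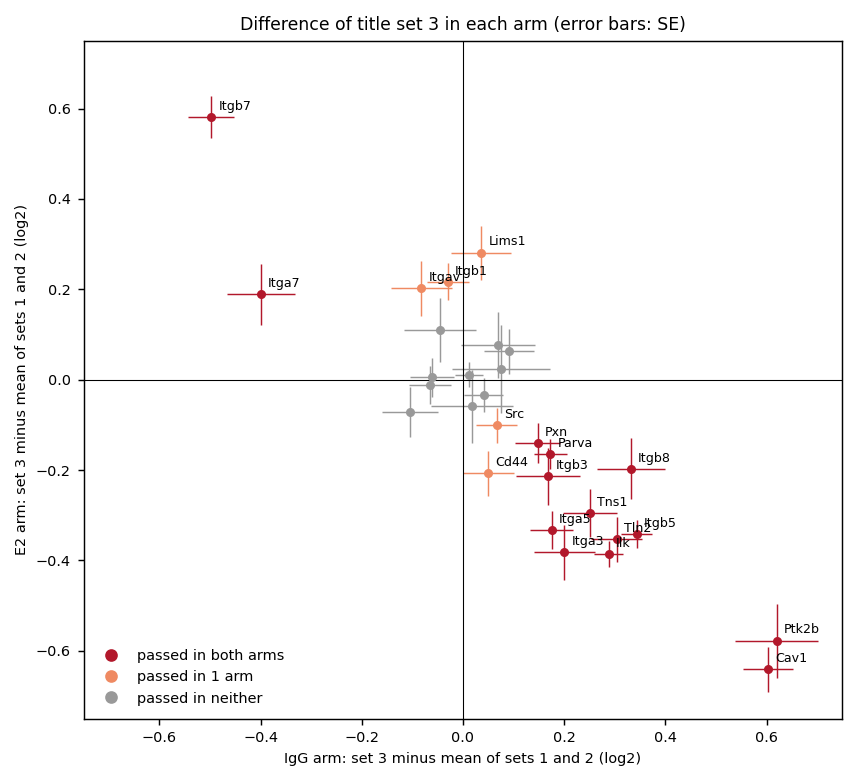
Log2 difference of set 3 from the mean of sets 1 and 2 of the same arm for the 29 members tested, IgG arm on the x axis and E2 arm on the y axis, with standard errors, coloured by where the limma adjusted p was under 0.05. The 14 members called in both arms lie at the upper left and the lower right, from Itgb7 at -0.50 and 0.58 to Cav1 at 0.60 and -0.64.

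Genes around the members were read from fixed lists. Beside the counts below, 12.9% of all genes were higher and 17.4% lower in set IgG 3, and 21.2% were higher and 18.7% lower in E2 3. Of 24 integrin ligands 21 were tested, with 5 higher and 3 lower in set IgG 3, and 3 higher and 12 lower in E2 3. Tgfbi, a collagen-binding adhesion protein, differed by 0.95 ± 0.05 in the IgG arm and -1.21 ± 0.05 in the E2 arm. Col6a1, a collagen chain, differed by 0.94 ± 0.05 and -0.96 ± 0.05. Fbln5, a fibulin that binds integrins, did the reverse at -1.31 ± 0.07 and 1.59 ± 0.07. In E2 set 2 against set 1, 7 ligands were lower and none was higher, among them Tnc (-0.32 ± 0.07) and Lamb1 (-0.27 ± 0.06). Of all genes 1.67% were lower and 0.932% higher there. Of 39 adhesion partners 35 were tested, with 5 higher and 5 lower in IgG 3, and 8 higher and 5 lower in E2 3. Sorbs3, which encodes vinexin, differed by 0.31 ± 0.04 and -0.25 ± 0.04, the Rap1 effector Apbb1ip by -0.30 ± 0.05 and 0.37 ± 0.05, and the kinase Fyn by -0.22 ± 0.04 and 0.28 ± 0.04. Of the 10 integrin genes outside the group 6 were tested, and Itgal alone passed, at 0.19 ± 0.06 in the E2 arm.

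Some markers of other cell types differed between the same sets, where 30.3% of all genes were called in the IgG arm and 39.9% in the E2 arm. Of 8 osteoblast markers 5 had a row and 3 passed the filter, with Sp7 and Ibsp below it. Their mean level per array ran from 7.47 to 7.65 in sets IgG 1, IgG 2 and E2 3 and from 7.73 to 7.99 in IgG 3, E2 1 and E2 2. Alpl, the alkaline phosphatase of bone, differed by 0.47 ± 0.04 in the IgG arm and -0.59 ± 0.04 in the E2 arm. Of 7 leukocyte markers 4 passed, while Ptprc, Itgam and Adgre1 did not, and the list ran from 5.90 to 6.28 per array. Cd68 differed by -1.04 ± 0.08 and 0.91 ± 0.08, and the other 3 passed in neither arm. Of 5 chondrocyte markers 3 passed the filter, among which Sox9 differed by 0.85 ± 0.11 and -0.93 ± 0.11, and the list ran from 6.68 to 7.37. The other 2, Col2a1 and Col9a1, passed in neither arm. Of 5 osteocyte markers tested, a list that holds Gja1 and the member Cd44, 1 was higher and 1 lower in IgG 3, and 1 higher and 2 lower in E2 3. Muscle markers had 1 of 5 higher in IgG 3 and 1 lower in E2 3, adipocyte markers 1 of 3 lower and 1 higher, and endothelial markers 0 of 4 in either. The part of these markers in the members' differences was not tested. In RNA of whole cultures, fewer cells of a type and less RNA per cell cannot be told apart.

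With the labels as given and all sets included, 1 of 29 members was lower in the E2 arm in the incubator, against 2.92% of all genes (1.6% higher and 1.32% lower). Without set 3 of both arms, a choice made after the values were seen, 6 members were higher and 6 lower, against 29.8% of all genes. Itga1 (probe set 10412298, 6.91 to 7.74 over the 24 arrays), which pairs with Itgb1 as a collagen receptor, read 7.58, 7.61 and 7.68 in IgG C and 7.33, 7.09 and 7.39 in E2 C. All E2 arrays lay below all IgG arrays. The difference, E2 minus IgG, was -0.36 ± 0.10 (limma adjusted p = 0.0483). Itga1 read 7.35, 7.53 and 7.74 in IgG 1g and 7.01, 7.31 and 7.27 in E2 1g, a difference of -0.34 ± 0.10 (limma adjusted p = 0.282). At 2g it read 7.35, 7.38 and 7.33 in the IgG arm and 7.24, 7.17 and 7.26 in the E2 arm, a difference of -0.13 ± 0.10 (limma adjusted p = 0.953). At ug it read 7.42, 7.30 and 7.28 and 6.91, 7.05 and 6.94, a difference of -0.37 ± 0.10 (limma adjusted p = 0.299). The 3 arrays of each group did not overlap between the arms in any of the 4 environments, as was so for 35%, 13.3%, 9.42% and 17% of all genes at C, 1g, 2g and ug.

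The call in the incubator depended on the processing and on the sets included. Itga1 kept its sign under every alternative run, while its limma adjusted p was 0.0765 after quantile normalization, 0.0574 without the filter and 0.0957 with the arrays of these groups alone. It was 0.139 without set E2 2, 0.174 without IgG 1, 0.303 without IgG 2 and 0.0605 without IgG 3, with differences of -0.38 to -0.27. The call was kept with the rows of each gene averaged (limma adjusted p = 0.0483), without the variance trend (0.0442) and with the title number as a block over all arrays (0.0481). Leaving out set E2 1 or E2 3 also kept it (0.0348 and 0.0464). Over all genes 423 were called, 54.8% of them higher in the E2 arm, and 46 after quantile normalization, 80.4% of them higher.

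At 1g, 2g and ug, 0 of 29 members and 0% of all genes were called by limma, with 1, 2 and 3 members at an unadjusted p under 0.05, beside 4 in the incubator. Over all genes such counts were 1804, 626 and 1862, beside 4329 in the incubator, each of 14489 tested. Over the 29 members the median difference was 0.04 in the incubator, 0.05 at 1g, and 0.00 at 2g and at ug, beside 0.02, -0.01, 0.00 and 0.00 over all genes. Itga11 was the next smallest p in the incubator, at 0.33 ± 0.12 (limma adjusted p = 0.0934). Itgb8 differed by -0.33 there and by -0.30 at 2g (limma adjusted p = 0.131 and 0.953). Without set 3 of both arms, a choice made after the values were seen, Itga11 differed by 0.26 ± 0.12 in the incubator (limma adjusted p = 0.123). Itgb8 then differed by -0.18 ± 0.12 in the incubator and by -0.15 ± 0.12 at 2g (limma adjusted p = 0.260 and 0.470).

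With the 3 set means of each arm as the unit, 0 of 29 members and 0% of all genes were called by limma, and 4 members and 3129 of all genes had an unadjusted p under 0.05. Itga1 had set means of 7.43, 7.45 and 7.51 in the IgG arm and 7.12, 7.16 and 7.22 in the E2 arm, so that every E2 set lay below every IgG set. Its difference was -0.30 ± 0.05 (limma adjusted p = 0.147). Itga1 is thus a member whose set 3 went with its own arm, at 0.07 ± 0.07 and 0.08 ± 0.07 from the other sets. Itgav differed by -0.24 ± 0.08, Itgb1 by -0.15 ± 0.07, Itga5 by 0.08 ± 0.11 and Cav1 by 0.19 ± 0.23 (limma adjusted p = 0.191, 0.252, 0.695 and 0.651).

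Without set 3 of either arm the members looked different. This choice was made after the values were seen and takes out the sets that stood apart, so its counts describe the 4 sets left and support nothing further. Over the set means, 10 members were then higher and 6 lower in the E2 arm, 55.2% of those tested, against 43.1% of all genes. The higher ones were Cav1 (0.60 ± 0.05), Ptk2b (0.63 ± 0.07), Ilk (0.38 ± 0.04), Itga3 (0.31 ± 0.06), Itgb5 (0.30 ± 0.03), Itga5 (0.25 ± 0.06), Tns1, Tln2, Parva and Itga11. The lower ones were Itgb7 (-0.48 ± 0.05), Itgav (-0.33 ± 0.07), Itga7 (-0.31 ± 0.08), Itga1 (-0.30 ± 0.05), Lims1 (-0.27 ± 0.05) and Itgb1 (-0.24 ± 0.04). The fibronectin receptor pair Itga5 and Itgb1 thus lay on opposite sides. In single environments 12 members were called in the incubator, 8 at 1g, 10 at 2g and 9 at ug, against 29.8%, 25.1%, 13.7% and 23.9% of all genes. Itga1 differed by -0.39 ± 0.11 in the incubator, -0.28 ± 0.11 at 1g, -0.17 ± 0.11 at 2g and -0.38 ± 0.11 at ug (limma adjusted p = 0.0200, 0.0911, 0.403 and 0.0273). Leaving out set E2 3 alone called 3 members over the set means, Itga1 (-0.33 ± 0.05), Itgb1 (-0.23 ± 0.05) and Lims1 (-0.28 ± 0.06), all lower, and 5.08% of all genes.

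**Figure D4:**
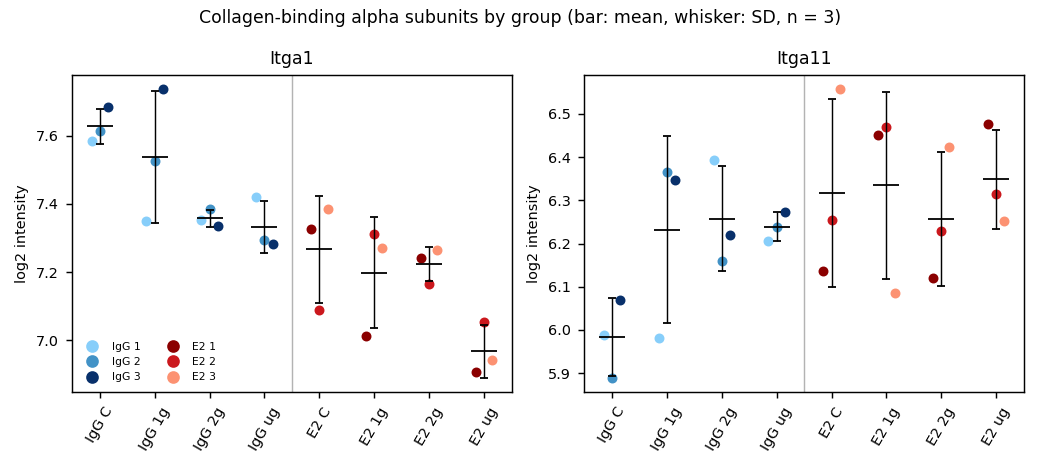
Log2 intensity of Itga1 and Itga11 in the 8 groups, with 1 point per array coloured by set, and the mean and SD of each group (n = 3). For Itga1 the E2 points lie below the IgG points in each environment, and both arms are lowest at ug, with means of 7.33 and 6.97. For Itga11 the IgG C points, from 5.89 to 6.07, lie below those of IgG 2g and IgG ug.

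Position on the platform moved no member past the threshold in either arm. Each arm was compared at 1g, 2g and ug with C, at 2g and ug with 1g, and as the mean of the platform positions with C. In each of these 12 comparisons 0 of 29 members and 0% of all genes were called by limma. At an unadjusted p under 0.05, the IgG arm had 0 members at 1g, 2 at 2g and 1 at ug against C, 0 and 1 at 2g and ug against 1g, and 2 for the platform mean. The E2 arm had 0, 0 and 2 against C, 0 and 1 against 1g, and 0 for the platform mean. Over all genes such counts ran from 162 to 1447 of 14489 across the 12 comparisons. They are not matched here comparison by comparison, so the member counts do not set the members apart from other genes. The median change of the members lay between -0.05 and 0.02 in these comparisons. Arrays did not overlap for 3 members at 1g, 4 at 2g and 3 at ug against C in the IgG arm, against 15.9%, 19.3% and 13% of all genes. Against 1g they did not overlap for 2 members at 2g and 0 at ug (7.96% and 5.63% of all genes), and for the platform mean for 0 (3.62%). In the E2 arm the counts were 0, 0 and 3 at 1g, 2g and ug against C (5.51%, 4.79% and 8.07%), 1 and 0 at 2g and ug against 1g (4.8% and 5.76%), and 0 for the platform mean (0.449%). Of the 29 members 23 were lower in the E2 arm at ug than at 1g, with a median of -0.05 beside 0.00 over all genes. After quantile normalization 8 members were higher there, beside 6 before it. This is 1 of the 12 comparisons, and the share of all genes that were lower is not given beside it, so it describes these members only.

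Itga1 had the smallest p among the members at ug in both arms. From the arrays given above, it differed at ug from C by -0.30 ± 0.10 in the IgG arm (limma adjusted p = 0.949) and -0.30 ± 0.10 in the E2 arm (limma adjusted p = 1.00). Its arrays at ug and C did not overlap in either arm, as was so for 13% and 8.07% of all genes. At 2g it differed by -0.27 ± 0.10 in the IgG arm (limma adjusted p = 0.505) and -0.04 ± 0.10 in the E2 arm, and at 1g by -0.09 ± 0.10 and -0.07 ± 0.10. None of these passed.

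Taking both arms at once was added after these values were seen. Itga1 at ug minus C was then -0.30 ± 0.07, with a limma adjusted p of 0.367 without a block (0% of all genes called) and 0.0496 with the replicate number as a block within arm (0.628% of all genes called). Leaving out any set raised the blocked value to between 0.0906 and 0.247, and quantile normalization gave 0.430 without the block. Itga1 read lower at ug than at C in all 6 sets. At 2g the difference was -0.16 and at 1g -0.08, with limma adjusted p of 0.439 and 0.653 under the block.

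Itga11 read 5.99, 5.89 and 6.07 in IgG C, 5.98, 6.37 and 6.35 in IgG 1g, 6.39, 6.16 and 6.22 in IgG 2g and 6.21, 6.24 and 6.27 in IgG ug. The IgG C arrays lay below all IgG 2g and IgG ug arrays and overlapped those of IgG 1g. Its differences from C were 0.25 ± 0.12, 0.27 ± 0.12 and 0.26 ± 0.12 (limma adjusted p = 0.814, 0.561 and 0.949). In the E2 arm they were 0.02 ± 0.12, -0.06 ± 0.12 and 0.03 ± 0.12, with arrays of 6.14, 6.26 and 6.56 in E2 C, 6.45, 6.47 and 6.09 in E2 1g, 6.12, 6.23 and 6.42 in E2 2g and 6.48, 6.31 and 6.25 in E2 ug. Lims1 read 10.40, 10.48 and 10.40 in IgG C and 10.10, 10.17 and 10.34 in IgG 1g, a difference of -0.22 ± 0.12 without overlap, as in 15.9% of all genes. The E2 arm differed by -0.21 ± 0.12 at 1g, with overlap, and Lims1 was lower at 1g than at C in all 6 sets. Over both arms, the comparison added after the data were seen, Lims1 at 1g minus C was -0.22 ± 0.08 without a block (limma adjusted p = 0.852) and -0.22 ± 0.06 with the replicate block within arm (limma adjusted p = 0.0873). Tns3 in the E2 arm read 10.88, 10.74 and 10.87 in C and 10.81, 10.66 and 10.58 at ug, a difference of -0.15 ± 0.06 with overlap.

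The receptor pair tied to hemichannels passed in no comparison of positions. Itga5 differed from C by 0.06 ± 0.14, 0.04 ± 0.14 and 0.04 ± 0.14 at 1g, 2g and ug in the IgG arm and by 0.10 ± 0.14, 0.03 ± 0.14 and -0.02 ± 0.14 in the E2 arm. Itgb1 differed by -0.07 ± 0.09, -0.01 ± 0.09 and -0.04 ± 0.09 in the IgG arm and by -0.05 ± 0.09, 0.02 ± 0.09 and -0.07 ± 0.09 in the E2 arm. None passed the threshold, and none did with the replicate block within arm, where the standard errors were 0.06 for Itga5 and 0.05 for Itgb1 and the limma adjusted p of each was 0.580 or more.

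**Figure D5:**
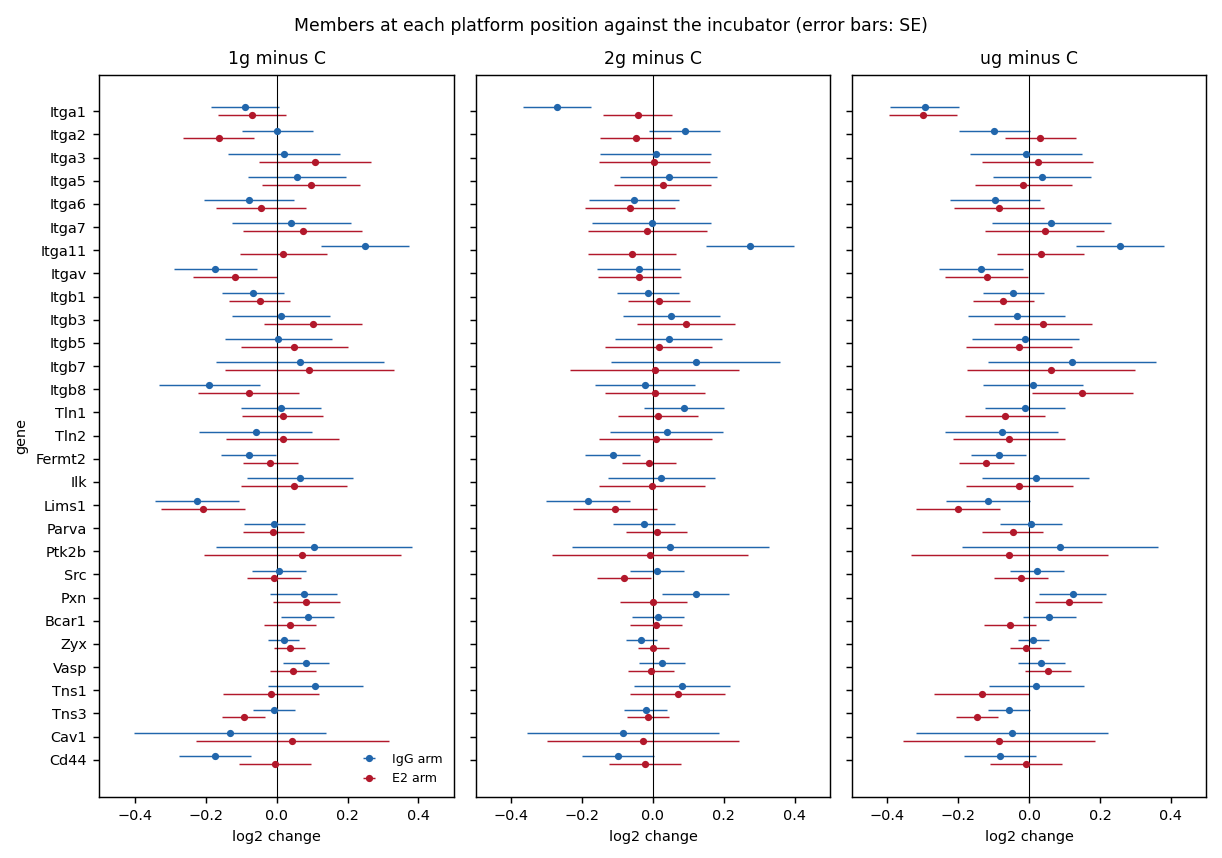
Log2 change of the 29 members tested at 1g, 2g and ug against the incubator (x axis), with standard errors, for the IgG arm (blue) and the E2 arm (red). Itga1 lies at -0.30 in both arms at ug, and no member passed the threshold in any of the 6 comparisons shown.

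Whether the antibody altered the change with position was tested as the difference between the arms in 1g, 2g or ug against C. In each of these 3 comparisons 0 of 29 members and 0% of all genes were called by limma. Itga11 at 2g had the largest difference, at -0.33 ± 0.18 (limma adjusted p = 0.838). Itga1 differed by 0.23 ± 0.14 at 2g and -0.00 ± 0.14 at ug. The ligands, adhesion partners and other integrins had no call in any comparison of positions or arms over the arrays of a group or over set means. With the replicate number as a block within arm, 0 members were called in any of the 15 comparisons of positions within an arm or between the arms' changes. The share of all genes called in these 15 fits is not given here, so the count says nothing particular to the members. The comparisons over both arms, added later, are not among these 15.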

How the data were processed

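Total RNA of 24 MLO-Y4 samples was measured on Affymetrix arrays as biotin-labelled cRNA, per the labels' protocols. The deposited values are log2 intensities per probe set, a scale judged from the values (2.36 to 14.06), and MAS5 is named, with no role or version, per the submitters' processing notes. Scaling between arrays and the time on the platform are not given in the sources used here. Scale and normalization of the deposited values can thus only be judged from array medians. Of 35556 rows, 21789 carried 1 gene symbol, 1621 several and 12146 were not listed. Of the rows with 1 symbol, 21698 matched RefSeq's gene table by Entrez gene number and took its symbol. Rows with 1 symbol were kept where they reached their array's 40th percentile on at least 3 arrays. Each gene then took its brightest kept row by mean over all arrays, which left 14489 genes.

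limma 3.58.1 (R 4.3.3) was fitted to the 8 group means with a variance trend, and p-values were adjusted by Benjamini-Hochberg over the 14489 genes with a threshold of 0.05. Comparisons between title sets used a fit of group and set, and 1 comparison used set means. Residual degrees of freedom were 16, 12 and 4. Deviations of arrays with the same number in 1 arm correlated at 0.195 to 0.812 in all 36 pairs. The 72 pairs in 1 arm with different numbers ran from -0.675 to 0.548, with a median of -0.452. These ranges overlap, so the check does not show that every number pairs arrays within an arm. The 48 pairs across arms with the same number lay between -0.748 and -0.0141. Sets and replicate blocks take arrays of an arm as paired by title number, and no label states this pairing. The precision is limited by 3 arrays a group. Alternatives were leave-outs, replicate blocks, quantile normalization, averaging all rows of a gene, and fits with no filter, with no trend or on the compared arrays alone. The members, lists and tests were chosen with earlier results of these data known. Every array's value is given for members called in a comparison between sets or arms and for Itga5, Itgav, Itgb1, Itgb3, Src, Tln1, Cav1 and Cd44. Members of smallest p in a comparison, and up to 3 genes of smallest p per companion list, are given by their values or differences.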

Additional observations from a re-analysis of the deposited data

Results flagged for a closer look

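The difference of set 3 from sets 1 and 2 was itself compared between the arms, IgG minus E2, a test added after the data were seen. It passed for 19 of 29 members (65.5% of them, limma adjusted p of 0.0212 or less), beside 45.3% of all genes. It was positive on the log2 scale for 14 members: Itga3 (0.58), Itga5 (0.51), Itgb3 (0.38), Itgb5 (0.68), Itgb8 (0.53), Tln2 (0.66), Ilk (0.67), Parva (0.34), Ptk2b (1.20), Src (0.17), Pxn (0.29), Tns1 (0.55), Cav1 (1.24) and Cd44 (0.26). It was negative for 5: Itga7 (-0.59), Itgav (-0.28), Itgb1 (-0.25), Itgb7 (-1.08) and Lims1 (-0.25). The sets were picked out after their values were seen, so these values describe how the 6 sets lie and give no support to a difference between the antibodies.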

How the results depend on the processing

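Of 253 recounts of members called under other settings, 240 stayed close to the first count and 13 did not. A count of 0 that stayed 0 is among the 240, also where no gene at all was called. Of 1002 values of named members, 954 kept direction and side of the threshold, 43 lost and 2 gained a call, and 3 changed sign. The later refits without set 3 of both arms and over both arms at once are in neither total. In the incubator E2 minus IgG went from 1 member to 0 under quantile normalization, no filter and only the arrays compared, and to between 0 and 1 when 1 set was left out. At 1g, 2g and ug leaving out 1 set gave 0 throughout. Without set 3 of both arms the counts were 12 at C, 8 at 1g, 10 at 2g, 9 at ug and 16 over set means, where leaving out 1 set gave 0 to 3. E2 set 2 minus set 1 went from 2 members to 0 without a variance trend and with only the arrays compared, and to between 0 and 2 without the arrays of 1 environment. Itga2 changed sign for ug minus 1g in the IgG arm (-0.188 to 0.0561 over leave-outs, 0.0561 without IgG 1) and for 2g minus 1g in the E2 arm (-0.00696 to 0.243, -0.00696 without E2 3). Itga11 did so for the difference between arms in 1g minus C (-0.38 to 0.0155, 0.0155 without E2 3). For these sign changes the cause was not tested. With the replicate block, 0 members were called in every comparison of positions within an arm or between the arms' changes, a count given without the share of all genes. The block changed no other call than that of Itga1 at ug over both arms (adjusted p 0.0496 by limma). Dim rows near the filter, such as Itga11, are limited by their signal.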
